A study of Homo sapiens with 12 samples.

Results

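Small nucleolar RNA (snoRNA) genes were examined in FaDU and JHU-029, established human lines from squamous carcinomas of the head and neck, 72 hours after lentiviral delivery of a short hairpin RNA. The members were all genes of the array whose symbol begins with SNORD, SNORA or SCARNA and which had a probe set listing a single gene symbol. There were 192 of them among 18404 genes: 115 SNORD genes (box C/D), 61 SNORA genes (box H/ACA) and 16 SCARNA genes (small Cajal body RNAs). The 4 groups were FaDU with a hairpin against TP63 (shTP63), FaDU with the control vector (shControl), JHU-029 with shTP63 and JHU-029 with shControl, each on 3 arrays. All groups had taken up a lentiviral hairpin, and uninfected cells are not analysed here. The product of TP63 is p63, a transcription factor needed for stratified epithelia, and the level of TP63 is not analysed here. The labels do not say whether replicates came from separate cultures, nor how many hairpin sequences were used, so the p-values reflect the spread among these arrays alone, which may be technical.

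snoRNAs are short RNAs of the nucleolus that guide chemical modification of other RNAs. Box C/D snoRNAs direct 2′-O-methylation and box H/ACA snoRNAs direct pseudouridylation, mostly of ribosomal RNA, while Cajal body RNAs guide the same reactions on spliceosomal small nuclear RNAs. In human cells most snoRNAs lie in introns of other genes and are trimmed out of the spliced intron, so that a snoRNA and the exons of its host come from 1 transcript but are processed and degraded separately. Many hosts encode ribosomal proteins or translation factors, and others are long non-coding RNAs such as GAS5 and the SNHG genes.

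The labelling reaction was primed with oligo-dT, per the labels' protocol, whereas mature snoRNAs lack a poly(A) tail. Whether the probes read mature snoRNA, precursor or unspliced host RNA was not tested. The median annotated length was 81 bases for SNORD genes, 134 for SNORA genes and 226.5 for SCARNA genes. The mean log2 intensity of 106 members lay above that of the median probe set of the array (6.53), and 86 lay at or below it, among them 60 of the 115 SNORD genes. Intensities of different probe sets are not comparable as amounts. Arrays of the same group correlated at 0.9933 to 0.9971 over all probe sets and arrays of different lines at 0.9401 to 0.9513. All 7 measured squamous epithelium markers were above the array median in all 4 groups, while at most 2 of the 7 fibroblast, 1 of the 6 immune and 1 of the 5 endothelial markers were. The summed linear intensity of the squamous markers was 14260 to 14580 in FaDU shTP63, 20590 to 20920 in FaDU shControl, 29340 to 31330 in JHU-029 shTP63 and 31470 to 33450 in JHU-029 shControl cells. That of the endothelial markers was 882.5 to 967.7, 516.7 to 541.9, 137.8 to 162.6 and 149.3 to 163.4 in the same order. On knockdown in FaDU only 1 of these 5 endothelial markers was called higher and 0 lower, with a median log2 change of -0.007. The part of these marker shifts in the results on snoRNA genes was not tested. In bulk RNA, fewer cells of a kind and less RNA per cell cannot be told apart.

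The members varied together between arrays of a group. The first FaDU shTP63 array held the lowest of the 3 values for 121 of the 192 members (63%), against 36.7% of all genes. The first FaDU shControl array held the highest value for 96 members (50%), against 32.7% of all genes. The median SD over the 3 arrays of a group was 0.146 for members in FaDU shTP63, 0.134 in FaDU shControl, 0.0996 in JHU-029 shTP63 and 0.114 in JHU-029 shControl on the log2 scale. For all genes it was 0.091, 0.0963, 0.0788 and 0.064 in the same order. Results on the FaDU knockdown are therefore also given without those first arrays.

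The largest differences were between the lines. Under the control hairpin, 111 of the 192 members were higher in FaDU than in JHU-029 (57.8%), where 33.4% of all genes were, and 29 were lower (15.1%), where 30.4% of all genes were. A gene was called where limma's adjusted p, computed over all 18404 genes, was under 0.05. By at least 2-fold, 71 members (37%) were higher, against 5.79% of all genes, and 17 (8.85%) were lower, against 9.6% of all genes. The median difference on the log2 scale was 0.35 for all members and 0.05 for all genes. It was 0.30 for SNORD, 0.65 for SNORA and 0.33 for SCARNA genes. Among members brighter than the median probe set, 69.8% were higher in FaDU and 15.1% lower, against 36% and 42.5% of all genes of that brightness. Among the dimmer members, 43% were higher and 15.1% lower, against 29.2% and 10.9% of all dim genes.

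Box C/D genes gave the widest range, with 64 higher and 16 lower in FaDU. SNORD61, which lies in the gene of the RNA-binding protein RBMX, had log2 intensities of 10.96, 10.95 and 10.98 in FaDU shControl cells, against 4.99, 5.14 and 4.63 in JHU-029 shControl cells. The arrays of the lines were far apart, with a difference of 6.05 (SE 0.15, limma adjusted p = 4.23e-12). SNORD63, in the gene of the mitochondrial chaperone HSPA9, had 9.68, 9.73 and 9.70 in FaDU shControl cells, against 4.63, 4.51 and 4.13 in JHU-029 shControl cells. Its difference was 5.28 (SE 0.13, limma adjusted p = 4.27e-12), again without overlap. SNORD8, in the chromatin remodeller gene CHD8, had 9.69, 9.55 and 9.83 in FaDU shControl cells, against 5.53, 5.42 and 5.82 in JHU-029 shControl cells, a difference of 4.10 (SE 0.13, limma adjusted p = 2.66e-11). SNORD58A and SNORD82 followed at 3.74 and 3.58.

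**Figure D1:**
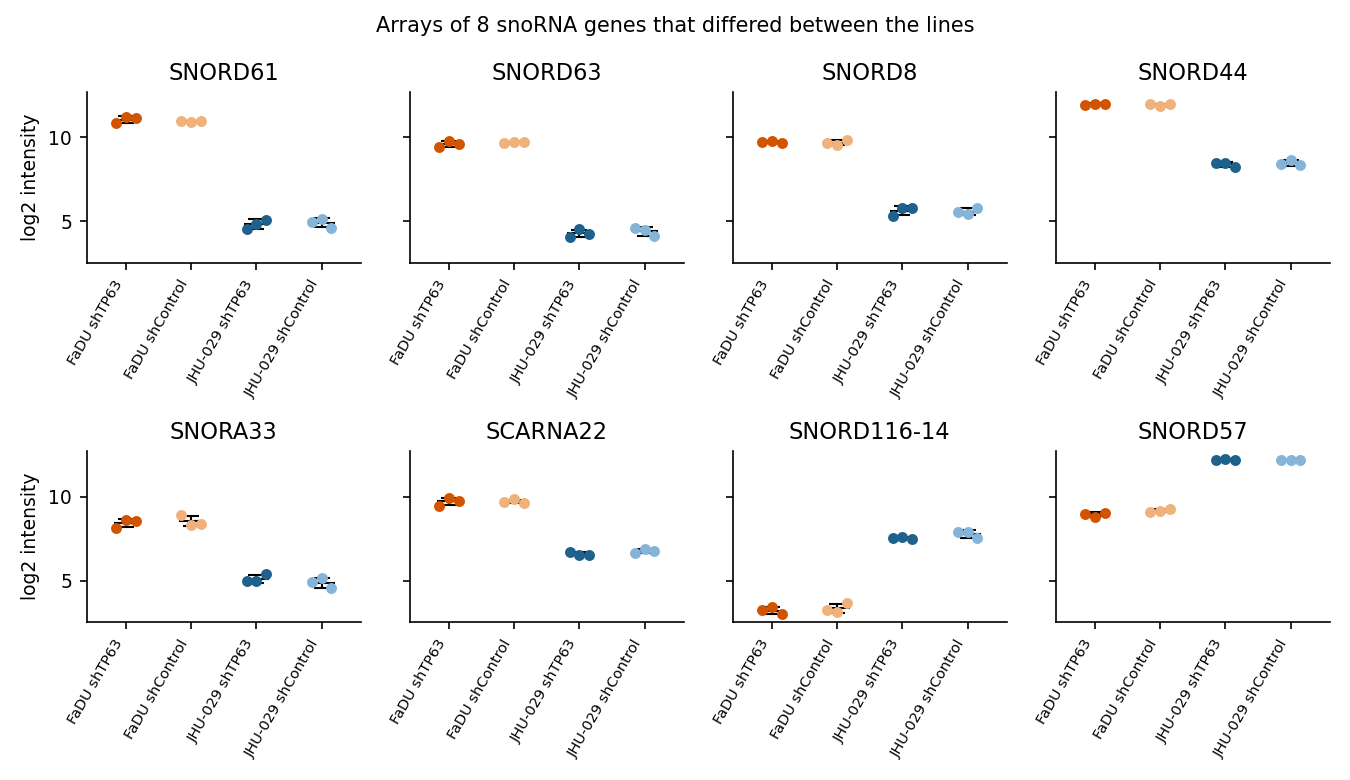
Log2 intensity (y axis) of 8 snoRNA genes on every array, with groups on the x axis; points are arrays and bars the mean with SD over 3 arrays. SNORD61, SNORD63, SNORD8, SNORD44, SNORA33 and SCARNA22 were higher in both FaDU groups than in both JHU-029 groups, and SNORD116-14 and SNORD57 were lower.

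The box C/D genes that were lower in FaDU included SNORD57, which lies in the gene of NOP56, itself a core protein of box C/D particles. SNORD57 had 9.07, 9.18 and 9.29 in FaDU shControl cells, against 12.20, 12.20 and 12.16 in JHU-029 shControl cells, a difference of -3.01 (SE 0.07, limma adjusted p = 2.85e-12). SNORD41 differed by -2.69 (SE 0.22). SNORD14C and SNORD14E, in the heat shock gene HSPA8, differed by -1.11 and -1.10. Some bright box C/D genes were not called between the lines under shControl. SNORD33, in RPL13A, had 12.05, 12.17 and 12.15 in FaDU shControl cells, against 12.12, 12.06 and 11.91 in JHU-029 shControl cells (difference 0.09, SE 0.09), and it was called higher in FaDU under shTP63 (0.36). SNORD13, which is transcribed from its own promoter and takes part in acetylation of ribosomal RNA, was higher in FaDU by 1.11 (SE 0.09). SNORD95 and SNORD96A, which like SNORD61 serve as reference RNAs in some qPCR panels, were also higher in FaDU. SNORD95 had 10.87, 11.03 and 10.82 in FaDU shControl cells, against 8.93, 8.88 and 8.88 in JHU-029 shControl cells, a difference of 2.01 (SE 0.08). SNORD96A differed by 1.08.

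Among box H/ACA genes, 38 of 61 were higher in FaDU and 9 were lower. SNORA33, in the ribosomal protein gene RPS12, had 8.89, 8.34 and 8.39 in FaDU shControl cells, against 4.95, 5.15 and 4.57 in JHU-029 shControl cells. All FaDU values were above all JHU-029 values, by 3.65 on average (SE 0.19, limma adjusted p = 2.08e-09). Probe sets that list SNORA33 with RPS12 or with SNORD101 gave smaller differences, 1.63 and 1.07, so the size depends on the probe set. SNORA21 (3.36), SNORA49 (3.12), SNORA27 (2.96) and SNORA24 (2.53) were the next highest log2 differences. The lowest was that of SNORA5A, with 7.80, 7.72 and 7.78 in FaDU shControl cells, against 9.51, 9.38 and 9.34 in JHU-029 shControl cells (-1.64, SE 0.10, limma adjusted p = 1.29e-08). SNORA71D followed at -1.50, while its relative SNORA71A was higher in FaDU by 1.05.

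The 16 SCARNA genes divided into 9 higher and 4 lower in FaDU. SCARNA22, in the histone methyltransferase gene NSD2, had 9.68, 9.85 and 9.65 in FaDU shControl cells, against 6.63, 6.86 and 6.78 in JHU-029 shControl cells, a difference of 2.97 (SE 0.11, limma adjusted p = 7.54e-11). SCARNA23 and SCARNA10 were each higher by 2.62 and SCARNA12 by 1.92. The lower genes were SCARNA4 (-1.64), SCARNA7 (-1.45), SCARNA17 (-1.35) and SCARNA9 (-0.92). For SCARNA9 a second, dimmer probe set gave -0.05, so its difference depends on the probe set.

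SCARNA16 was higher in FaDU by 1.90 (SE 0.13, limma adjusted p = 2.53e-08). It is shown in sequence because it is the only member whose gene holds an annotated microRNA among the sequences used here, and the array cannot say which product was read. SCARNA16 had 9.19, 9.19 and 8.95 in FaDU shControl cells, against 7.12, 7.25 and 7.27 in JHU-029 shControl cells. The hairpin of miR-6516 lies within SCARNA16 on the plus strand at chr17:77089417-77089497 (RefSeq, GRCh38.p14), and its mature products are given below with the seed, bases 2 to 8, in capitals.
miR-6516 hairpin: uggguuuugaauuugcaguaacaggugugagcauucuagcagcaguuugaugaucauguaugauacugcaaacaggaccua
hsa-miR-6516-5p: uUUGCAGUaacaggugugagca
hsa-miR-6516-3p: aUCAUGUAugauacugcaaaca

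The imprinted repeat families were examined apart. The SNORD116 and SNORD115 genes are tandem copies inside SNHG14 on chromosome 15, transcribed from the paternal allele, and the SNORD116 copies are those missing in the smallest Prader-Willi deletions. Of 20 SNORD116 genes, 8 were lower and 2 higher in FaDU. SNORD116-14 had 3.25, 3.16 and 3.68 in FaDU shControl cells, against 7.92, 7.89 and 7.53 in JHU-029 shControl cells, a log2 difference of -4.42 (SE 0.15, limma adjusted p = 4.12e-11). The FaDU values lay far below the median probe set of the array (6.53), so no fold is given. SNORD116-20 (-3.96), SNORD116-15 (-3.28), SNORD116-24 (-2.92) and SNORD116-21 (-2.57) followed, while the copies not called were dim in both lines, between 2.49 and 3.88 in mean log2 intensity. Sequences of these copies are nearly identical, so the value of a single copy is uncertain. SNORD116-6, which also overlaps other annotated genes, was higher by 1.83 but with FaDU shControl values of 7.05, 7.87 and 5.02, and its call was lost without either of the first 2 of these arrays and without the second JHU-029 shControl array.

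The 20 SNORD115 genes had mean log2 intensities of 2.16 to 3.67, and 12 were higher in FaDU by a median over the family of 0.21. Quantile normalization ended the call of 8 of these 12. The 6 SNORD113 and SNORD114 genes, in the MEG8 locus, lay at 2.79 to 4.12, and 2 were called higher. Without these families, 95 of 146 members were higher in FaDU and 21 lower, with a median difference of 0.89.

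The host was taken as the annotated gene that contains the snoRNA gene in the RefSeq table, whose strand was not compared. A single containing gene was found for 174 members. Of the 31 members inside ribosomal protein genes, 25 were higher in FaDU and 1 was lower, with a median difference of 1.30. Inside long non-coding RNA genes, 16 of 25 were higher and 3 lower (median 0.79). Inside other protein-coding genes, 41 of 73 were higher and 15 lower (median 0.39). Of 15 members inside several genes, 12 were higher and 2 lower (median 1.49), and of 3 with no containing gene 2 were higher (median 0.91). In the imprinted clusters 15 of 45 were higher and 8 lower (median 0.12). Of all genes 33.4% were higher and 30.4% lower, and differences between kinds of host were not tested.

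**Figure D2:**
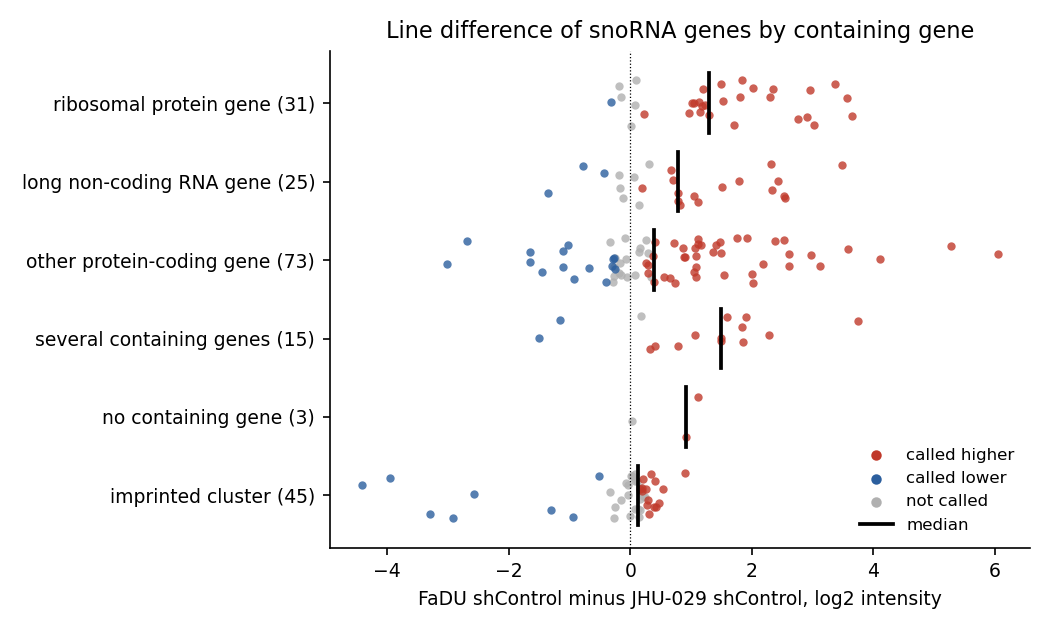
Difference between FaDU shControl and JHU-029 shControl in log2 intensity (x axis) for all 192 snoRNA genes, by the kind of containing gene (y axis, number of genes in brackets); each point is a gene, coloured by its call, with vertical bars at medians. Inside ribosomal protein genes 25 of 31 points are coloured as higher in FaDU, around a median of 1.30.

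Hosts of snoRNAs that encode ribosomal proteins are known for a terminal oligopyrimidine (TOP) start, a C followed by a run of pyrimidines at the first base of the transcript, which places their translation under control of growth signals. Start regions of 8 hosts whose members carry the results are shown from 50 bases before the annotated start to 20 bases from it (RefSeq, GRCh38.p14). A C with at least 4 further pyrimidines, beginning within 5 bases of the start, is in capitals. Where a host has several listed starts, only the first is shown, so missing capitals say nothing on its other starts.
RPL13A: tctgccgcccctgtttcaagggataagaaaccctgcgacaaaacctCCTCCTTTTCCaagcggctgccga
RPL3: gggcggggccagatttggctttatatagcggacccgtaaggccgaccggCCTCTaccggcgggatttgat
RABGGTB: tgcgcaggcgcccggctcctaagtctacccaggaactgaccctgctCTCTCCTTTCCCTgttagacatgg
RBMX: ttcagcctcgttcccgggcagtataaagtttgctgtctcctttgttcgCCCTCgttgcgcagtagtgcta
GAS5: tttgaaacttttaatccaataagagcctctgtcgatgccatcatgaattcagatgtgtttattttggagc
NCL: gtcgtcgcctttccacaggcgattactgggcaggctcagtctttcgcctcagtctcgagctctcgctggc
HSPA9: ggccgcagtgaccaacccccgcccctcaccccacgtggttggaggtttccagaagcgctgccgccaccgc
TBRG4: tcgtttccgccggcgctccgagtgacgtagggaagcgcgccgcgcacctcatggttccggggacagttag

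Counted strictly, with the C at the annotated start itself on the transcribed strand, the motif stood at 10 of 11 starts of ribosomal protein hosts (90.9%). It stood at 4 of 15 starts of long non-coding hosts (26.7%), at 11 of 71 starts of other protein-coding hosts (15.5%), and at 4.07% of 35116 starts in the whole table. The wider rule used for the capitals is met by 21.1% of all starts. It is met by 100% of starts of ribosomal protein hosts, 46.7% of long non-coding hosts and 28.2% of other protein-coding hosts. Of the starts shown with capitals, RPL13A and RABGGTB met the strict count, and RPL3 and RBMX did not. These are matches of letters in a window and describe the hosts, not the arrays. A start was listed for 76 of 91 hosts.

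The host genes were compared next. For 88 members in 67 hosts, the host was itself measured by a probe set with a single symbol. Over the 88 pairs, the median size of the line difference was 0.91 for members and 0.37 for hosts, a host counting once per member. By at least 1 log2 unit, 42 members differed, while the host did in only 17 pairs, which held 12 distinct hosts. Of 67 such members called between the lines, the host was called the same way for 45, the opposite way for 8 and not called for 14. Across the 88 pairs the correlation of both differences was 0.404 (Pearson) and 0.456 (Spearman). It is a description across genes that share arrays, and some pairs share a host. SNORD63 was higher by 5.28 and HSPA9 by 0.83, and SNORD8 by 4.10 and CHD8 by 1.00. SNORD59A and SNORD59B were higher in FaDU by 1.41 and 2.02, while their host ATP5F1B, a subunit of ATP synthase, was lower (log2 difference -0.20, limma adjusted p = 0.00191).

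**Figure D3:**
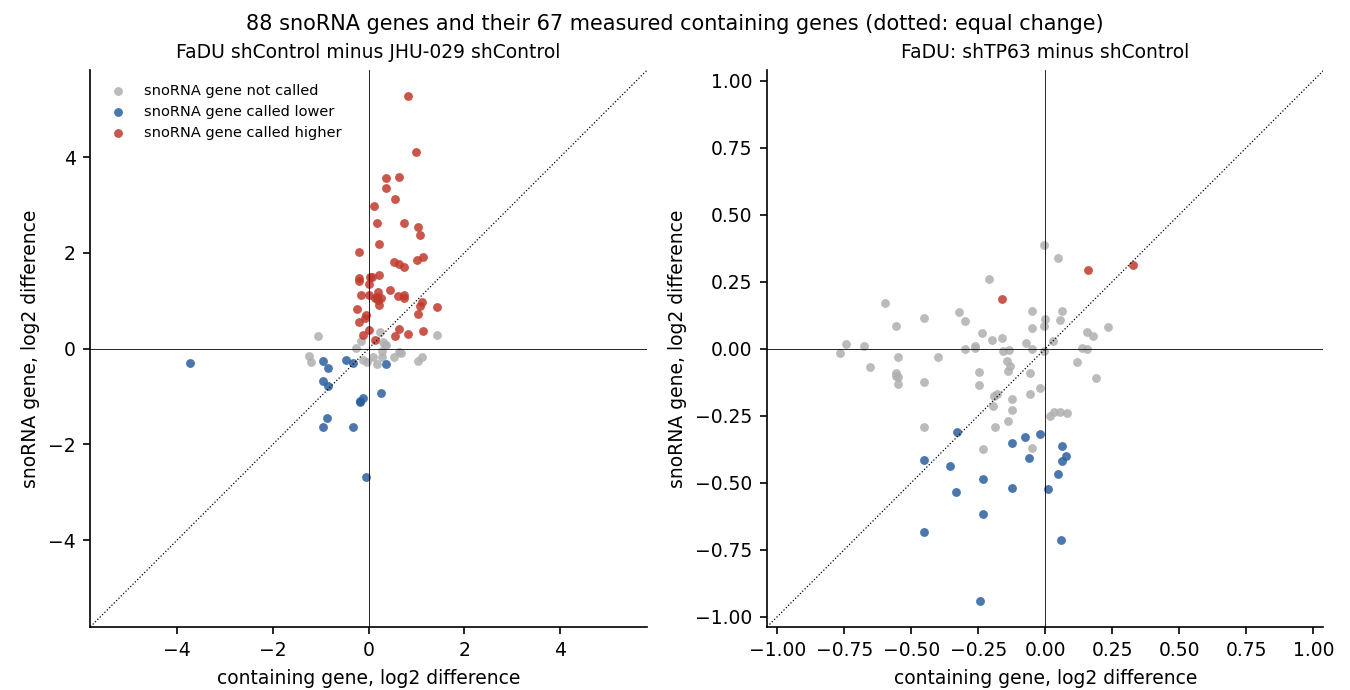
Log2 difference of 88 snoRNA genes (y axis) against that of the containing gene (x axis), between FaDU shControl and JHU-029 shControl (left) and between shTP63 and shControl in FaDU (right); points are snoRNA genes coloured by their own call, and the dotted line marks equal change. On the left members reach 5.28 and hosts lie between -3.73 and 1.42 (Pearson correlation 0.404 across genes); on the right the correlation is 0.057.

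snoRNAs of 1 host also differed among themselves. Of 28 hosts that contain at least 2 members, 13 held members whose line differences lay at least 1 log2 unit apart. NOP56 contained SNORD57 (-3.01) and SNORA51 (1.04). RPL23A contained SNORD42A, at 3.57 (SE 0.15), SNORD4B, at 0.08 (SE 0.06), and SNORD4A, at -0.32 (SE 0.09). The differences between members of a host were not tested.

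GAS5, a long non-coding RNA that accumulates on growth arrest, contained 7 members. SNORD44, a box C/D RNA often used as a reference in qPCR, had 11.97, 11.89 and 11.9958 in FaDU shControl cells, against 8.43, 8.65 and 8.35 in JHU-029 shControl cells, a difference of 3.48 (SE 0.08). SNORD81 (2.54), SNORD79 (2.33), SNORD78 (1.51) and SNORD77 (1.12) were also higher. SNORD75 (0.07, SE 0.07) and SNORD74 (-0.17, SE 0.10) were not called. The 3 members of TBRG4, SNORA5A, SNORA5B and SNORA5C, were all lower in FaDU, and TBRG4 itself was lower (log2 difference -0.95).

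**Figure D4:**
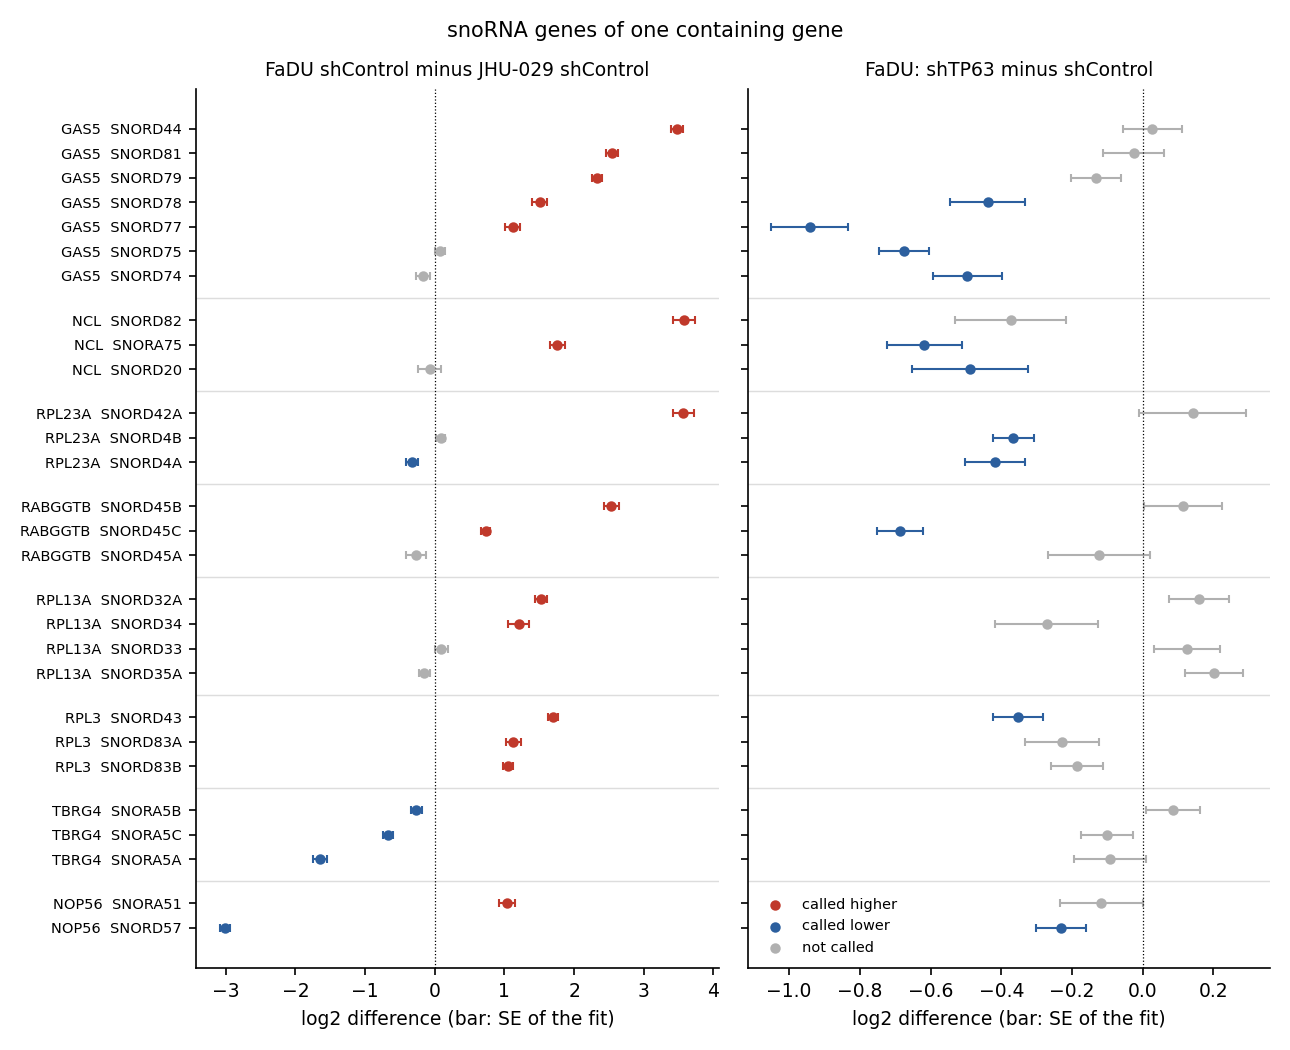
Log2 differences (x axes) of snoRNA genes grouped by containing gene (y axis, host then snoRNA), between FaDU shControl and JHU-029 shControl (left) and between shTP63 and shControl in FaDU (right); points are estimates of the fit, bars its SE, colours the call. GAS5 members spread from -0.17 to 3.48 on the left, and on the right SNORD77, SNORD75, SNORD74 and SNORD78 fell while SNORD44, SNORD81 and SNORD79 stayed within 0.14 of 0.

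The line comparison was repeated on the shTP63 arrays, which share no array with the control comparison. There, 109 members were higher and 37 lower in FaDU, against 37.3% and 31.7% of all genes. By at least 2-fold, 63 were higher (32.8%) and 16 lower (8.33%), against 5.83% and 10.5% of all genes. Of the 111 members higher under shControl, 97 were also higher under shTP63, and 1, SNORA69, was lower. Of the 29 lower members, 25 were lower again. SNORD61 differed by 6.23, SNORD63 by 5.32 and SNORD116-14 by -4.32.

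Knockdown of TP63 moved snoRNA genes much less than the lines differed. In FaDU, 33 of 192 members fell (17.2%), where 14.2% of all genes fell, and 5 rose (2.6%), where 12.4% of all genes rose. By at least 2-fold, 0 members rose, against 0.364% of all genes, and 0 fell, against 0.484% of all genes. The fallers were 24 SNORD and 9 SNORA genes and 0 SCARNA genes, while 4 of the 5 that rose were SCARNA genes. The median change was -0.06 for members and 0.02 for all genes, with -0.08 for SNORD, -0.07 for SNORA and 0.08 for SCARNA genes. Over all levels the share that fell was near that of all genes, but it differed by brightness. Among members brighter than the median probe set, 17.9% fell and 4.72% rose, against 21.3% and 16.3% of all genes of that brightness. Among the dimmer members, 16.3% fell and 0 rose, against 2.66% and 6.23% of all dim genes. Several of these dim falls lost their call without both first FaDU arrays, among them SNORA15, SNORA41, SNORD116-26, SNORD13P1, SNORD1A, SNORD1B and SNORD20. Others, among them SNORA19, SNORA69, SNORD37 and SNORD77, kept it under every alternative run. Without both first FaDU arrays, 22 members fell and 13 rose, and the median was 0.01 for members and 0.004 for all genes. The share of all genes called in that fit was not computed. Those arrays were picked for low shTP63 and high shControl values of members, so a shift upward was built into this choice. The 2 FaDU shControl arrays whose titles carry the extra word "new" (titled 2 and 3) are the first and second shControl arrays here. Leaving both out keeps a single shControl array, so no counts are given for that fit. It also drops the first shControl array, so it overlaps with the alternative without both first FaDU arrays. Calls of 18 of the 38 changed members held under all alternatives run.

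SNORD49A had the largest fall of a member. It lies in SNHG29 and had 6.47, 6.51 and 6.66 in FaDU shTP63 cells, against 7.52, 7.29 and 7.66 in FaDU shControl cells, without overlap (log2 change -0.94, SE 0.09, limma adjusted p = 9.22e-06). SNORD77, in GAS5, had 5.69, 5.72 and 6.05 in FaDU shTP63 cells, against 6.95, 6.65 and 6.69 in FaDU shControl cells, also without overlap (log2 change -0.94, SE 0.11, limma adjusted p = 4.11e-05). SNORD45C, in RABGGTB, had 8.07, 8.16 and 8.29 in FaDU shTP63 cells, against 8.90, 8.91 and 8.77 in FaDU shControl cells (-0.69, SE 0.06, limma adjusted p = 8.88e-06). These calls held under all alternatives run. SNORD13P1 (-0.71), whose arrays lay between 2.25 and 3.64, and SNORD1A (-0.68) lost theirs without the 2 shControl arrays titled "new" and without both first FaDU arrays.

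Of the H/ACA genes, SNORA75, in the gene of the nucleolar protein nucleolin (NCL), had 8.05, 8.55 and 8.45 in FaDU shTP63 cells, against 9.03, 8.98 and 8.89 in FaDU shControl cells (-0.62, SE 0.11, limma adjusted p = 0.000837). SNORA69 (-0.54), SNORA65 (-0.52), SNORA19 (-0.52) and SNORA74A (-0.51) followed, each without overlap of the arrays. Of the rises, SNORA60 was the largest, with 7.22, 7.26 and 7.28 in FaDU shTP63 cells, against 6.79, 6.94 and 6.86 in FaDU shControl cells (0.39, SE 0.12, limma adjusted p = 0.0359). SCARNA9 (0.31), SCARNA10 (0.29), SCARNA17 (0.26) and SCARNA7 (0.18) rose by less. A probe set that lists SNORA60 with SNHG11 changed by -0.12 in FaDU and was not called. All 5 rises lost their call under at least 1 alternative. SCARNA9 lost it only without the 2 shControl arrays titled "new" and without both first FaDU arrays, and the other 4 lost it on leaving out any of at least 4 single arrays.

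By host, 11 of 25 members inside long non-coding RNA genes fell in FaDU and 2 rose. Among members inside ribosomal protein genes, 7 of 31 fell, and 13 of 73 inside other protein-coding genes fell. Of all genes 14.2% fell and 12.4% rose, and of all genes above the median probe set 21.3% fell. Differences between kinds of host were not tested. Of the GAS5 members, SNORD74, SNORD75, SNORD77 and SNORD78 fell, by log2 changes of -0.50, -0.68, -0.94 and -0.44, while SNORD44 (0.03), SNORD79 (-0.13) and SNORD81 (-0.02) were not called. SNORD50A and SNORD50B in SNHG5 fell (-0.39 and -0.67), as did SNORD1A and SNORD1B in SNHG16 (-0.68 and -0.55). With a measured host, 22 members were called, and the host was called the same way for 10, the opposite way for 0 and not called for 12. SNHG29 fell by 0.24 where SNORD49A fell by 0.94, and RABGGTB fell by 0.45 where SNORD45C fell by 0.69 and SNORD45B (0.11, SE 0.11) was not called.

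In JHU-029 the knockdown changed 5 of 192 members, all downward (2.6%), where 1.35% of all genes fell, and 0 members rose, where 1.8% of all genes rose. By at least 2-fold, 0 members changed, against 0.0326% of all genes upward and 0.0272% downward. At an unadjusted p under 0.05, 30 of 192 members differed in either direction, against 2727 of 18404 genes, which is a similar share. SNORA75 had 6.67, 6.66 and 6.57 in JHU-029 shTP63 cells, against 7.30, 7.20 and 7.13 in JHU-029 shControl cells, without overlap (log2 change -0.57, SE 0.11, limma adjusted p = 0.0124). SNORD15B, in the ribosomal protein gene RPS3, had 9.53, 9.64 and 9.43 in JHU-029 shTP63 cells, against 9.96, 10.27 and 10.01 in JHU-029 shControl cells (-0.55, SE 0.12, limma adjusted p = 0.0274). SNORA71A (-0.35), SNORD104 (-0.34) and SNORD43 (-0.31) also fell. Every one of these 5 calls was lost without at least 1 array, and leaving out the second shControl array left 0 calls. SNORA75 and SNORD43 fell in both lines, SNORD43 with 9.98, 9.92 and 9.97 in FaDU shTP63 cells, against 10.44, 10.19 and 10.30 in FaDU shControl cells.

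**Figure D5:**
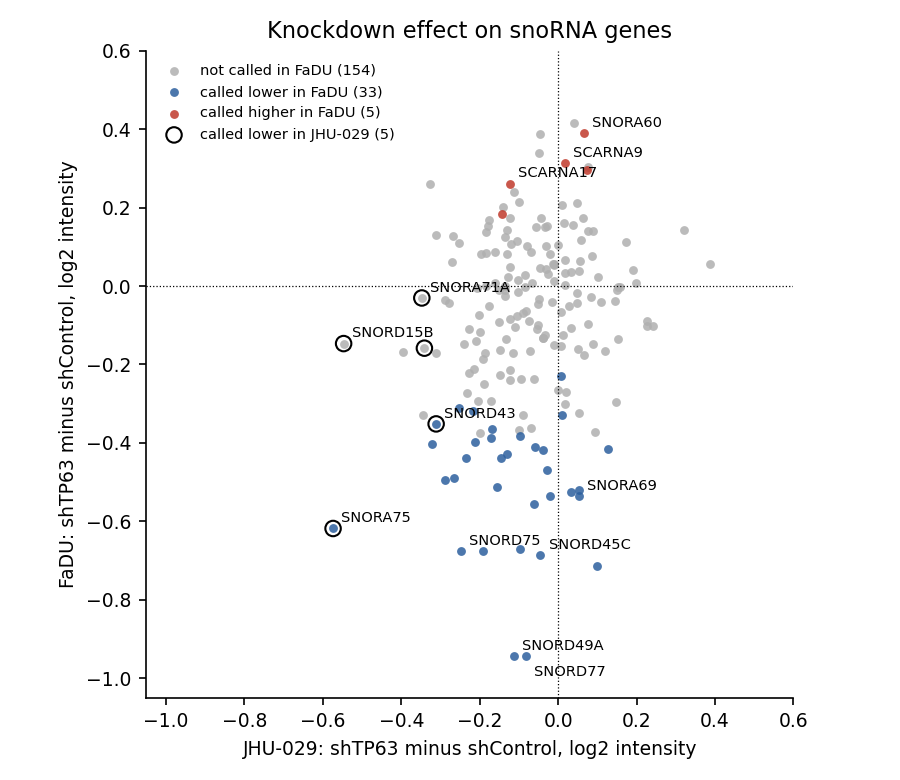
Log2 change on TP63 knockdown in FaDU (y axis) against that in JHU-029 (x axis) for 192 snoRNA genes; points are genes coloured by the call in FaDU, and rings mark the 5 genes that fell in JHU-029. SNORD49A and SNORD77 lie lowest at -0.94 in FaDU with JHU-029 changes of -0.11 and -0.08, and SNORA75 and SNORD43 are the ringed genes that fell in both lines.

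The effects of knockdown were compared directly as the FaDU effect minus the JHU-029 effect. It was called higher for 4 members (2.08%), against 4.97% of all genes, and lower for 10 (5.21%), against 8.25% of all genes. SNORD77 (-0.86, SE 0.15, limma adjusted p = 0.00307), SNORD49A (-0.83, limma adjusted p = 0.00122) and SNORD45C (-0.64, limma adjusted p = 0.000778) were the lowest. SNORD49A had 7.51, 7.62 and 7.54 in JHU-029 shTP63 cells, against 7.71, 7.74 and 7.56 in JHU-029 shControl cells, a change of -0.11 there. SCARNA17 (0.38) and SCARNA7 (0.33) were the highest. By at least 2-fold, 0 members were called in either direction, against 0.348% of all genes higher and 0.326% lower. Without both first FaDU arrays the counts were 11 higher and 6 lower, with the same upward shift built into the choice. The share of all genes called in that fit was not computed.

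Proteins that assemble snoRNA particles were followed from lists of known components. In FaDU after knockdown, both measured box C/D core proteins fell: FBL, the 2′-O-methyltransferase, by 0.29 (SE 0.06, limma adjusted p = 0.00174) and NOP58 by 0.36 (SE 0.05, limma adjusted p = 0.000163). Of the 4 H/ACA core proteins, DKC1, the pseudouridine synthase, fell by 0.63 (SE 0.06, limma adjusted p = 5.13e-06) and NHP2 by 0.30, while NOP10 (-0.10) and GAR1 (-0.02) were not called. Of 22 measured assembly and maturation factors, 9 fell, with TCOF1 (-0.95), NUFIP1 (-0.67) and RUVBL1 (-0.57) lowest, and 2 rose, the Cajal body protein COIL (0.27) and the export adaptor PHAX (0.20). Of all genes 14.2% fell and 12.4% rose, and of genes above the median probe set 21.3% fell and 16.3% rose. In JHU-029, 0 of these 28 genes were called, and at an unadjusted p under 0.05 3 of them differed.

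Between the lines under shControl, all 4 H/ACA core proteins were higher in FaDU (median difference 0.41), and 0 of the 2 C/D core proteins were called, with FBL at 0.12 and NOP58 at 0.08. Of the 22 factors, 13 were higher and 7 lower, against 33.4% and 30.4% of all genes. Of other non-coding RNA genes, 16 of 20 small nuclear RNA genes (80%, median difference 0.83), 69 of 173 microRNA genes (39.9%) and 184 of 626 long non-coding RNA genes (29.4%) were higher in FaDU, against 33.4% of all genes. Differences between these classes were not tested. Of 4 measured RNA genes of other particles, 2 were higher in FaDU and 1 lower. TERC, the H/ACA-like RNA of telomerase, was higher in FaDU by 1.70 (SE 0.07), and RMRP, the RNA of RNase MRP, by 1.42 (SE 0.05). TERC rose on knockdown in FaDU by 0.34 (SE 0.07, limma adjusted p = 0.00379).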

How the data were processed

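Per the submitters' processing notes, the authors used RMA and R 2.15.1. The deposited values are linear intensity values per probe set, which the authors had normalized, on 12 arrays. Log2 was taken here. The design had assumed a log2 table, and the same test was used.

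Of 32321 probe sets, 19158 listed 1 gene symbol, and the probe set of highest mean was kept for each of 18404 genes. Group means were fitted with limma 3.58.1 in R 4.3.3 over all 12 arrays (8 residual degrees of freedom), with Benjamini-Hochberg adjustment over all genes and a threshold of 0.05. The test was tried on simulated data with 200 of 18404 genes changed. At a log2 change of 0.5 it recovered 85.1% in JHU-029 and 82.1% in FaDU, with 9 and 6 false calls. At a change of 0.25 it recovered 16.4% and 7.46%. The simulated noise was independent between genes, whereas the members varied together, so these figures may not hold for them. In FaDU 2609 genes fell and 2291 rose, far more than the 200 changed in the simulation. The adjusted p depends on the share of changed genes, so the simulated recovery does not give that of the FaDU data. The number of arrays limits the precision. No pair of arrays was near identical.

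Named genes were, for each comparison, class and direction, up to 5 called members with arrays that did not overlap, plus preset lists of rRNA processing guides, reference RNAs, GAS5 and RPL13A members, imprinted families and particle proteins. Others, such as SNORD116-6, SNORD59A, SNORD59B, SNORD50A, SNORD1B, SNORA51, SNORD4A, SNORD4B, SNORD45B and the hosts, were chosen after their values were seen. Members and lists were chosen with earlier results of these data known. Hosts, promoters and miRNA sequences came from RefSeq tables (GRCh38.p14). The alternatives tried are given in the closing section. The result on 1 host gene is not reported here.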

Additional observations from a re-analysis of the deposited data

Results flagged for a closer look

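The effect of TP63 knockdown differed between FaDU and JHU-029 for 14 snoRNA genes, by limma's test of the FaDU effect minus the JHU-029 effect (adjusted over all genes). It was lower for 10 members (5.21%), against 8.25% of all genes, and higher for 4 (2.08%), against 4.97% of all genes. Members were thus called less often than genes in general. The log2 difference was negative for SNORD77 (-0.8595), SNORD49A (-0.8309), SNORD45C (-0.6409), SNORA69 (-0.5873), SNORD50B (-0.5746), SNORA19 (-0.5741), SNORA65 (-0.5562), SNORA3B (-0.4403), SNORD75 (-0.4275) and SNORD37 (-0.3508). All 10 of these fell in FaDU, and none was called in JHU-029. It was positive for SCARNA17 (0.3842), SCARNA7 (0.3269), SNORA71A (0.317) and SNORD28 (0.2682). SNORA71A fell in JHU-029 and was not called in FaDU (-0.03), whereas SCARNA17 and SCARNA7 rose in FaDU. SNORD28 was called in neither line, with 0.08 in FaDU and -0.18 in JHU-029. The calls of SNORD77, SNORD49A, SNORD45C and SNORA69 held under every alternative run, and the other 10 were lost under at least 1.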

How the results depend on the processing

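No called member changed sign under any alternative run. Calls held under all of them for 112 of 140 members between the lines under shControl, 18 of 38 on knockdown in FaDU, 4 of 14 for the difference of effects and 0 of 5 in JHU-029. Leaving out 1 array at a time gave 103 to 110 members higher and 28 to 32 lower between the lines under shControl, and 99 to 107 higher and 34 to 39 lower under shTP63. It gave 27 to 36 falls and 1 to 8 rises in FaDU, 0 to 3 falls and 0 rises in JHU-029, and 1 to 9 higher and 8 to 14 lower for the difference of effects. With array medians made equal, 3 members rose in FaDU and 1 effect difference was higher. With a variance prior that follows intensity, 14 members fell in JHU-029 and 9 effect differences were higher. With only genes above the median probe set, 10 members fell in JHU-029, and 17 were lower in FaDU under shControl and 21 under shTP63, since fewer members were tested. Fitting each line alone gave 8 falls in JHU-029 and 2 rises in FaDU. Without both first FaDU arrays, chosen after seeing the data, 13 members rose in FaDU, and 11 effect differences were higher and 6 lower. That choice shifts members upward in FaDU by construction. Over all genes, arrays with the same replicate number did not deviate together (r from -0.339 to 0.013). For members alone no such correlation was taken. In JHU-029 the second array was highest for 84 members under shTP63 and 91 under shControl, and the third lowest for 87 and 89. In FaDU the first array was lowest for 121 members under shTP63 but highest for 96 under shControl. Whether the numbers pair the samples is not settled. With the replicate block, 0 members fell in JHU-029, 2 rose in FaDU, and 0 effect differences were higher and 6 lower. The cause of these shifts was not tested. For the alternative fits no share of all genes called was computed, so these counts of members have none beside them. Low signal limits the SNORD115 copies, whose mean log2 intensity was 3.67 or less.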

Other observations

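Probe sets that list a snoRNA gene together with other genes were outside the comparisons above, and 63 of them were tested in 1 fit over all 32321 probe sets, chosen after seeing the data. On TP63 knockdown in FaDU, 15 fell, where 9.39% of all probe sets fell, and 1 rose, where 7.16% of all rose. These shares were not matched for brightness, and 11775 of all probe sets had no listed symbol. Many of the 63 were brighter than the median probe set. Of genes of that brightness, 21.3% fell and 16.3% rose in the fit over genes. The lowest listed SNORA61 with SNHG12 (log2 change -0.90, SE 0.06), a probe set of SNHG12 with SNORA16A, SNORA61 and SNORA44 (-0.83) and SNHG1 with SNORD31 (-0.75). GAS5 with SNORD80 (-0.67), SNORA56 with DKC1 (-0.61) and SNORD56 with NOP56 (-0.54) fell as well. The rise was that of SNORD62A with SNORD62B (0.57). In JHU-029, 0 of the 63 were called by limma. Between FaDU shControl and JHU-029 shControl, 39 were higher (31.3% of all probe sets were) and 10 lower (24.3%). SNHG1 with SNORD27 (3.75) and SNORD42B with CEP164 (3.38) were the highest, and a probe set listing 10 symbols of the SNORD116 locus was the lowest (-3.68). These probe sets do not separate the snoRNA from its host.

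For SNORA15, the dimmer of its 2 probe sets changed by -0.91 on knockdown in FaDU and the brighter by -0.33.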
